A study of Mus musculus with 6 samples.

Results

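Toll-like receptor genes were examined in bone marrow-derived macrophages (BMDMs) of PKM2ΔMAC and PKM2FL/FL mice. The 10 genes Tlr1, Tlr2, Tlr3, Tlr4, Tlr5, Tlr6, Tlr7, Tlr8, Tlr9 and Tlr13 were taken by their symbols from tables of 23935 gene symbols, and all 10 were among the 16516 genes with enough counts to be tested. Both groups carried the floxed Pkm allele (PKM2FL/FL), and the PKM2ΔMAC mice also carried LysM-Cre, a Cre recombinase inserted in the Lyz2 gene and active in myeloid cells, so that neutrophils and their precursors may recombine too. Bone marrow was cultured with M-CSF for 7 days and then primed for 16 h with 10 ng/mL LPS, a component of the bacterial outer membrane, together with IFN-γ at 25 ng/mL. Total RNA of 3 mice per genotype was sequenced, with 1 library per mouse, and the ages of these mice are not given in the sources used here. The comparison asks how the RNA of the receptor genes differs between primed BMDMs of these genotypes. Besides PKM2, the genotypes differ in the presence of Cre and in Lyz2 RNA. Differences that come with PKM2, with Cre or with Lyz2 cannot be told apart in this design.

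Toll-like receptors are transmembrane proteins of innate immune cells that bind microbial molecules through leucine-rich repeats and signal through a cytoplasmic TIR domain. A surface group (Tlr1, Tlr2, Tlr4, Tlr5 and Tlr6) recognizes lipoproteins, LPS or flagellin at the plasma membrane. An endosomal group (Tlr3, Tlr7, Tlr8, Tlr9 and Tlr13) recognizes nucleic acids and reaches its compartment with the chaperone Unc93b1. All of them except Tlr3, which uses Ticam1, signal through the adaptor Myd88, and macrophages are among the cells in which this family has been studied most.

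The libraries held between 49957449 and 54524651 counts. A gene without any count may still have been present at up to 3 counts, or 0.0550 to 0.0601 CPM (counts scaled to a common total with the library's normalization factor), which covers counting error only. Pkm, which is counted here over all its isoforms, was at 1714, 1698 and 1705 CPM in PKM2FL/FL BMDMs and at 987, 1212 and 1005 CPM in PKM2ΔMAC BMDMs, and Lyz2, the Cre insertion site, was at 17825 ± 860 and 28.4 ± 3.80 CPM (mean ± SD, n = 3), so that the libraries matched their genotype labels. PKM2ΔMAC replicate 2 stood apart from the other libraries of its genotype. Its chi-square against them, divided by the degrees of freedom, was 43.1 and 53.8, whereas all other pairs of a genotype were between 7.55 and 13.7. Differences of the receptor genes are also given without it where it moved them by over 1.5 times.

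The macrophage cultures held RNA of all 10 receptor genes, at widely different levels, as the plot of TPM by gene shows. On the deposited TPM scale, which divides by gene length and so allows genes to be compared, Tlr13, a receptor of bacterial ribosomal RNA, was the most abundant in PKM2FL/FL BMDMs with 370, 356 and 359 TPM. It was followed by Tlr7 at 320 ± 17.9 TPM and Tlr8 at 269 ± 1.25 TPM (mean ± SD, n = 3). Tlr2 at 159 ± 14.6, Tlr9 at 106 ± 5.58, Tlr1 at 84.1 ± 2.56 and Tlr4 at 78.5 ± 4.74 TPM formed the middle of the order, and Tlr6 at 21.7 ± 0.181, Tlr3 at 13.97 ± 1.79 and Tlr5 at 0.915 ± 0.148 TPM its lower end. In this order the libraries of Tlr1 and Tlr4 overlapped, and those of every other pair of neighbours did not. In PKM2ΔMAC BMDMs Tlr7 and Tlr8 stood above Tlr13 in all 3 libraries, at 620 ± 99.7 and 558 ± 23.6 TPM against 383 ± 6.52 TPM. Neighbours whose libraries overlapped were there Tlr7 and Tlr8, Tlr2 and Tlr9, and Tlr9 and Tlr1. Tlr13 was thus at position 1 in each PKM2FL/FL library and at position 3 in each PKM2ΔMAC library, while Tlr2, Tlr6, Tlr3 and Tlr5 kept positions 4, 8, 9 and 10 in all 6.

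**Figure D1:**
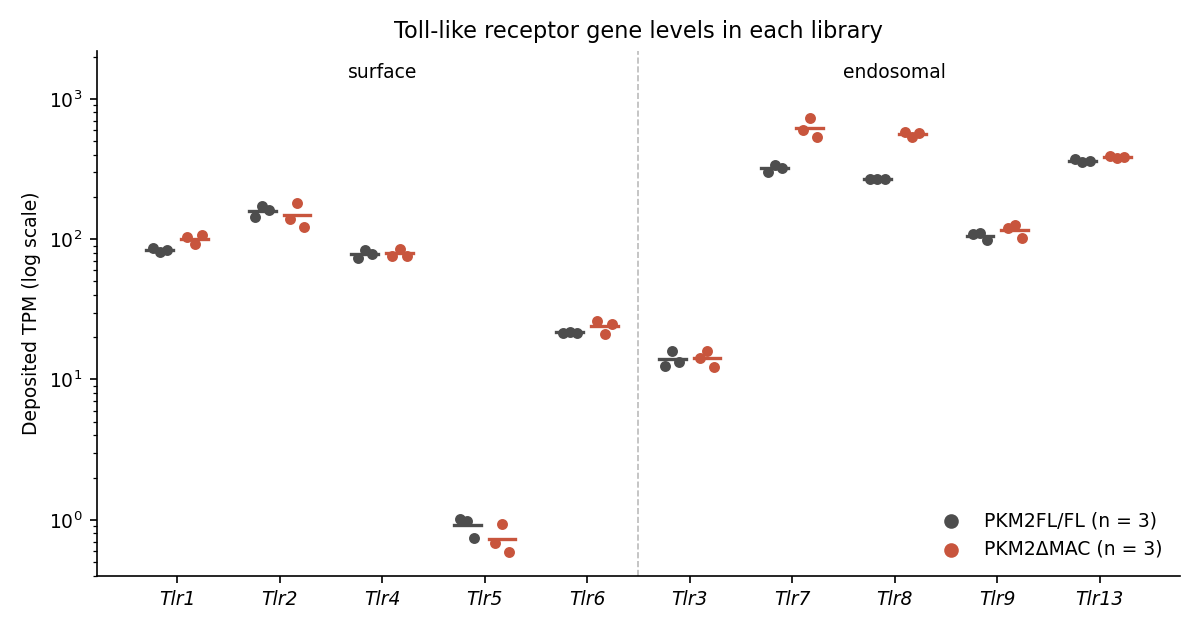
Deposited TPM (log scale) of the 10 Toll-like receptor genes, with 1 point per library, bars at the mean of each genotype and the surface genes left of the dashed line. The PKM2ΔMAC libraries of Tlr7 lie between 535 and 730 TPM and those of Tlr8 between 531 and 575 TPM, above all PKM2FL/FL libraries of these genes, whereas the genotypes overlap or lie close together for the other genes.

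Of the 10 receptor genes, 2 were called at an adjusted p under 0.05 by edgeR's quasi-likelihood test, Tlr7 and Tlr8, and both were higher in PKM2ΔMAC BMDMs. Over all 16516 tested genes 68 were called, which is 0.412%, and 47 were called as higher, which is 0.285%. An unadjusted p under 0.05 was reached by 3 of the 10 genes (also Tlr1) and by 9.83% of all tested genes. The libraries of the genotypes did not overlap in CPM for 2 of the 10, again Tlr7 and Tlr8, and for 17.2% of all tested genes, 8.92% with PKM2ΔMAC above. In TPM those of Tlr1 and Tlr13 did not overlap either, with PKM2ΔMAC above. Of the 10 genes 6 had a log2 fold change above 0, against 49.9% of all tested genes. Their median was 0.03, and that of the 8 genes other than Tlr7 and Tlr8 was -0.018, with 4 above and 4 below 0. In bulk RNA a difference in the number of cells that express a gene and a difference in RNA per cell cannot be told apart.

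**Figure D2:**
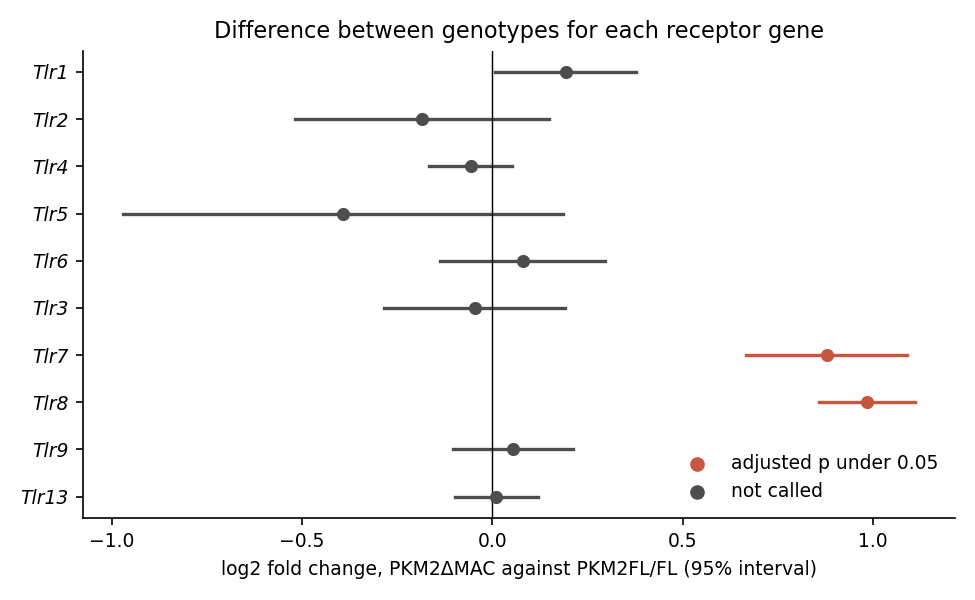
Log2 fold change of each Toll-like receptor gene in PKM2ΔMAC against PKM2FL/FL BMDMs from edgeR, with its 95% interval, for 3 libraries per genotype. Tlr7 at 0.88 and Tlr8 at 0.98 were called, the interval of Tlr1 begins just above 0 without a call after adjustment, and the intervals of the other genes include 0.

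Tlr8, an endosomal receptor of single-stranded RNA and RNA fragments, lies on chromosome X of GRCm38 from 167242696 to 167264329 on the minus strand. It was at 277, 273 and 277 CPM in PKM2FL/FL BMDMs and at 569, 499 and 566 CPM in PKM2ΔMAC BMDMs. The lowest PKM2ΔMAC library thus lay well above the highest PKM2FL/FL library, and the PKM2FL/FL libraries differed little from each other. The log2 fold change was 0.98 (SE 0.06, 95% interval from 0.86 to 1.11, adjusted p = 0.000102), a fold of 1.98 with an interval from 1.81 to 2.16, and it ranked at position 8 of all tested genes by p. Without PKM2ΔMAC replicate 2, which held the lowest of the 3 values, it was 1.04 (adjusted p = 1.66e-08).

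Tlr7, another endosomal receptor of single-stranded RNA, is the neighbour of Tlr8 on the same strand, from 167304929 to 167330558 on chromosome X. Its values were 356, 390 and 374 CPM in PKM2FL/FL and 671, 781 and 606 CPM in PKM2ΔMAC BMDMs. The genotypes did not overlap, and the PKM2ΔMAC libraries varied more than those of Tlr8, with a coefficient of variation of 16.1% against 4.23% in TPM. The log2 fold change was 0.88 (SE 0.09, 95% interval from 0.67 to 1.09, adjusted p = 0.00953), a fold of 1.84 with an interval from 1.59 to 2.13. Here PKM2ΔMAC replicate 2 held the highest value, and without it the log2 fold change was 0.78 (adjusted p = 1.76e-05). Omitting PKM2FL/FL replicate 1, 2 or 3 left a log2 fold change of 0.84, 0.91 or 0.88, but the adjusted p rose to 0.0742, 0.0639 or 0.0993 and the call was lost. For both genes the two-sided exact permutation test of log2 CPM gave p = 0.1, the smallest value that 3 against 3 libraries can give.

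Since the paralogs lie side by side, reads could be assigned to the wrong gene if their sequences were alike. The longest run of bases shared by the coding sequences of Tlr7 (3150 bases) and Tlr8 (3096 bases) was only 13 bases in GENCODE M21, and 0% of the 50-base words of either transcript set occurred in transcripts of another gene. The shared run is printed to show how short it is.
Tlr7 and Tlr8: tggatgtgattat

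The other endosomal genes did not pass the test. Tlr13, which also lies on chromosome X, from 106143204 to 106160493 on the plus strand, was at 459, 432 and 444 CPM in PKM2FL/FL and at 462, 425 and 458 CPM in PKM2ΔMAC BMDMs. These CPM values of the genotypes interleave, and the log2 fold change of 0.01 had a 95% interval from -0.098 to 0.12 (adjusted p = 0.969). In TPM they did not overlap, at 370, 356 and 359 in PKM2FL/FL against 390, 377 and 383 in PKM2ΔMAC BMDMs. On log2(TPM + 1), at a mean TPM of at least 1, the median log2 fold change of all genes was 0.063. Tlr9, a receptor of unmethylated CpG DNA on chromosome 9 (106222598 to 106226883, plus strand), was at 108, 108 and 99.2 CPM against 115, 114 and 97.8 CPM. Its replicate 3 was the lowest in both genotypes, and the log2 fold change was 0.05 (95% interval from -0.10 to 0.21, adjusted p = 0.850). Tlr3, the receptor of double-stranded RNA on chromosome 8 (45395665 to 45411080, minus strand), was at 18.8, 23.5 and 20.0 CPM against 20.5, 21.9 and 17.8 CPM. The genotypes overlapped and the log2 fold change was -0.047 (95% interval from -0.29 to 0.19, adjusted p = 0.929). Of its 50-base words 5.30% are shared with Gm45542, an antisense gene that overlaps it, and whether strand was used in counting is not given in the sources used here. Without PKM2ΔMAC replicate 2 the log2 fold changes were 0.049 for Tlr13, 0.021 for Tlr9 and -0.11 for Tlr3. With any 1 library left out they ranged from -0.013 to 0.049 for Tlr13, from 0.013 (without PKM2ΔMAC replicate 1) to 0.13 (without PKM2ΔMAC replicate 3) for Tlr9 and from -0.11 to 0.050 for Tlr3, again without a call. The exact permutation test gave two-sided p = 0.9 for Tlr13, 0.6 for Tlr9 and 0.8 for Tlr3.

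Upstream sequences from RefSeq's annotation of GRCm38.p6 were available here for 8 of the 10 genes, all but Tlr4 and Tlr7. Those of Tlr8 and Tlr9 are printed to set an endosomal gene that was called beside an endosomal gene that was not. Of the called genes only Tlr8 could thus be examined. The 250 bases before the start site were searched on both strands for 3 motifs, and matches are in capitals. The core GAGGAA is bound by PU.1, the ETS factor of myeloid cells. The letters TGANTCA describe the binding site of AP-1 family dimers. The TATA box was searched as TATAAA, which places the start of transcription in some genes. In Tlr8 (chrX:167264330-167264579, minus strand) the capitals mark a pair of overlapping TATAAA matches, on opposite strands, from -91 to -84, and GAGGAA read on the opposite strand from -77 to -72. In Tlr9 (chr9:106222348-106222597, plus strand) they mark GAGGAA from -112 to -107 and the AP-1 letters from -58 to -52.
Tlr8: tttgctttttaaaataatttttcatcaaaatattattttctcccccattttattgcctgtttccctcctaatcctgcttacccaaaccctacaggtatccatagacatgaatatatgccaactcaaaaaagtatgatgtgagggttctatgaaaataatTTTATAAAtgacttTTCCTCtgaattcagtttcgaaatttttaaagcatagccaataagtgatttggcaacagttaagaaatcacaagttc
Tlr9: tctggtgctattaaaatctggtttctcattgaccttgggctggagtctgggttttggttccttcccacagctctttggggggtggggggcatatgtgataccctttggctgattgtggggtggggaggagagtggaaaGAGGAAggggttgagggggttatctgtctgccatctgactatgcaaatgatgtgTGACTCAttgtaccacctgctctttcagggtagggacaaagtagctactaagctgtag
At the start site listed first for each gene, GAGGAA was found in 4 of the 8 genes, namely Tlr1, Tlr8, Tlr9 and Tlr13, and in 23.1% of 27025 promoters of the same length, also taken once per gene. The AP-1 letters were found in Tlr9 and in 6.87% of the promoters, and TATAAA in Tlr8 and in 12.97% of the promoters. Tlr1 and Tlr6 have another listed start site each, at which TATAAA was matched for Tlr6 and GAGGAA for neither. Within these windows the gene that was called and the gene that was not both held GAGGAA, and a match describes letters, not a bound site.

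None of the 5 surface genes passed the test. Tlr1, which pairs with Tlr2 to bind triacylated lipoproteins, was at 83.6, 76.9 and 80.8 CPM in PKM2FL/FL and at 96.1, 80.4 and 99.4 CPM in PKM2ΔMAC BMDMs. In PKM2ΔMAC replicate 2 it lay within the range of the PKM2FL/FL libraries, and in the other libraries of that genotype above it. In TPM that replicate lay above the PKM2FL/FL libraries too, at 91.7 against 86.7, 81.5 and 84.2 TPM. The log2 fold change of 0.19 had an SE of 0.08 and a 95% interval from 0.0073 to 0.38 (adjusted p = 0.490). Without replicate 2 of PKM2ΔMAC it was 0.28 and was called (adjusted p = 0.00941). Tlr6, which pairs with Tlr2 to bind diacylated lipoproteins, was at 23.2, 23.0 and 23.1 CPM against 26.7, 20.6 and 25.9 CPM. As for Tlr1, replicate 2 was the lowest PKM2ΔMAC library, here below all PKM2FL/FL libraries, and the log2 fold change was 0.08 (95% interval from -0.14 to 0.30, adjusted p = 0.840). For Tlr6 this size moved with each PKM2ΔMAC library, since it was 0.19 (adjusted p = 0.187) without PKM2ΔMAC replicate 2, 0.0097 without replicate 1 and 0.03 without replicate 3. Tlr2 itself was at 125, 147 and 139 CPM against 116, 144 and 102 CPM. Its replicate 2 was the highest library in both genotypes, and the log2 fold change was -0.18 (SE 0.14, 95% interval from -0.52 to 0.15, adjusted p = 0.736). Tlr2 was also not called when that library of PKM2ΔMAC was dropped, which gave -0.33, or when PKM2ΔMAC replicate 3 was dropped, which gave -0.077.

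The values of Tlr1 and Tlr6 need care because these genes, which are neighbours on chromosome 5, share part of their sequence (Tlr1 from 64924679 to 64933563 and Tlr6 from 64952031 to 64960097, both on the minus strand). Of the 50-base words of Tlr1 transcripts 13.6% occur in Tlr6, and of those of Tlr6 12.3% in Tlr1. A read that lies wholly within such stretches cannot be assigned to either gene with certainty by its own sequence. The longest identical run of their coding sequences has 229 bases, at chr5:64925537-64925765 in exon 3 of 3 of Tlr1 (coding bases 1468 to 1696 of 2385) and at chr5:64953828-64954056 in exon 2 of 2 of Tlr6 (coding bases 1507 to 1735 of 2418). It is printed as the longest of the stretches that the paralogs share in their coding sequences, from GRCm38 on the minus strand.
Tlr1 and Tlr6: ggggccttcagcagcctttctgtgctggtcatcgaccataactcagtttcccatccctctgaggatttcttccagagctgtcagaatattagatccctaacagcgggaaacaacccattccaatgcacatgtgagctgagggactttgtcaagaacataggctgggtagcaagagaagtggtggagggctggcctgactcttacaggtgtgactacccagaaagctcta
The ratio of Tlr1 to Tlr6 in TPM was 3.88 ± 0.148 in PKM2FL/FL and 4.21 ± 0.177 in PKM2ΔMAC BMDMs (mean ± SD, n = 3, exact permutation test, two-sided, p = 0.2).

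Tlr4, the LPS receptor on chromosome 4 (66827584 to 66930284, plus strand), was at 118, 131 and 125 CPM in PKM2FL/FL and at 117, 125 and 118 CPM in PKM2ΔMAC BMDMs. The genotypes overlapped, and the log2 fold change of -0.058 had a 95% interval from -0.17 to 0.05 (adjusted p = 0.767). It turned to 0.015 when log2 TPM was compared in place of counts, and was -0.087 without PKM2ΔMAC replicate 2 (adjusted p = 0.462). With any 1 library left out it ranged from -0.093 (without PKM2FL/FL replicate 1) to -0.023 (without PKM2FL/FL replicate 2), and Tlr4 was not called. Tlr5, the flagellin receptor on chromosome 1 (182954788 to 182976044, plus strand), had the fewest counts of the 10 receptor genes, with 75, 69 and 52 counts against 48, 64 and 39 counts. In CPM these were 1.40, 1.33 and 1.02 against 0.905, 1.17 and 0.786. The lowest values were those of PKM2ΔMAC replicates 1 and 3, the genotypes overlapped, and the log2 fold change of -0.39 had the widest interval of the family, from -0.97 to 0.18 (adjusted p = 0.668). Tlr2 lies on chromosome 3 (83836272 to 83841767, minus strand). Exact permutation tests of the surface genes gave two-sided p between 0.2 and 0.5. Tlr11 and Tlr12, receptors of profilin-like proteins that are not among the 10 genes, had between 2 and 13 and between 0 and 12 counts per library and were not tested.

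Because Tlr7 and Tlr8 are among the most abundant receptor genes, their difference altered the make-up of the family, as the stacked plot of TPM shares shows. The TPM of all 10 genes summed to 1388, 1451 and 1408 in the PKM2FL/FL libraries and to 2043, 2161 and 1930 in the PKM2ΔMAC libraries. The genotypes did not overlap, and the ratio of the means was 1.44. Without Tlr7 and Tlr8 the sums were 826 ± 14.3 and 866 ± 36.5 TPM (mean ± SD, n = 3), a ratio of 1.05. These TPM ratios include a shift of the scale, since the median log2 fold change of all genes on log2(TPM + 1) was 0.063. On counts the median log2 fold change of the 8 genes other than Tlr7 and Tlr8 was -0.018. Tlr7 and Tlr8 together made up 41.6% of the family in PKM2FL/FL and 57.6% in PKM2ΔMAC BMDMs. The share of Tlr13 was 25.6% and 18.8%, although its own TPM was 362 and 383, and that of the surface genes 24.3% and 17.3%, although their sum was 345 ± 16.9 and 353 ± 26.0 TPM. These shares are parts of a whole, so that the rise of the pair lowers the shares of all others by construction.

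**Figure D3:**
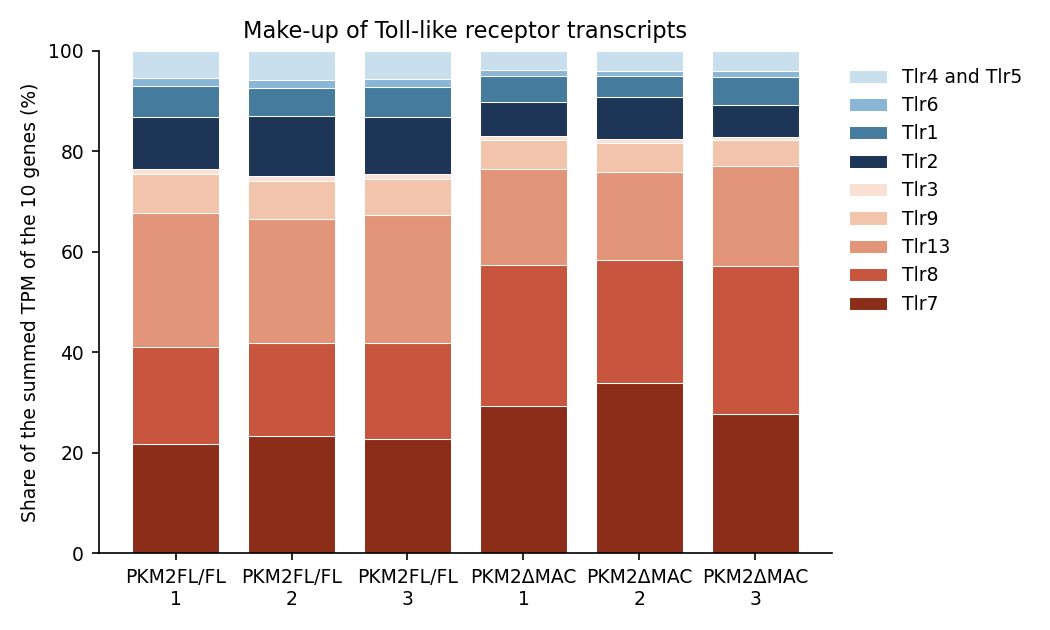
Share of each Toll-like receptor gene in the summed deposited TPM of the 10 genes (in percent), with 1 stacked bar per library and the surface genes in blue. Tlr7 and Tlr8 take between 41.1% and 41.9% in the PKM2FL/FL libraries and between 57.1% and 58.4% in the PKM2ΔMAC libraries.

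Ratios within a library describe the genes relative to each other. Tlr8 relative to Tlr13 was 0.743 ± 0.018 in PKM2FL/FL and 1.46 ± 0.040 in PKM2ΔMAC BMDMs, and Tlr7 relative to Tlr13 was 0.886 ± 0.066 and 1.62 ± 0.282, both without overlap (mean ± SD, n = 3 per genotype). Relative to their chaperone Unc93b1, Tlr8 was at 0.295 ± 0.006 and 0.565 ± 0.038 and Tlr7 at 0.351 ± 0.012 and 0.626 ± 0.088, again without overlap, whereas Tlr9 was at 0.116 ± 0.006 and 0.117 ± 0.012 (exact p = 1). Since Tlr7 and Tlr8 were called and Tlr13 and Unc93b1 were not, the ratios of Tlr7 and Tlr8 to these genes restate the calls. They are given as a description, with no test. The ratio of Tlr7 to Tlr8 lay between 1.13 and 1.26 in PKM2FL/FL and was 1.04, 1.37 and 0.941 in PKM2ΔMAC BMDMs (exact permutation p = 0.6). Thus Tlr7 exceeded Tlr8 in 5 of 6 libraries, and its widest spread was among the PKM2ΔMAC libraries. The ratios of Tlr2 to Tlr1, Tlr6 and Tlr4 overlapped between the genotypes, with exact p between 0.3 and 0.4. In all 15 ratios were computed, none of which can reach an exact p under 0.1 with 3 libraries per genotype, and p-values that miss the threshold do not show that ratios are equal.

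The genes around each receptor gene were examined within 1 Mb on either side. Of the 12 tested neighbours of Tlr7 and of Tlr8, 3 were called in each case, namely the other receptor, Tmsb4x and Prps2. For the other 8 receptor genes 0 neighbours were called, among 27 each for Tlr1 and Tlr6, 25 for Tlr9, 13 for Tlr5, 12 for Tlr2, 11 each for Tlr3 and Tlr13 and 1 for Tlr4. These counts come from the same edgeR test, and 0.412% of all tested genes were called. Tmsb4x, which encodes the actin-binding peptide thymosin beta, lies on the proximal side of Tlr8 (167207093 to 167209315). It was at 2232, 2225 and 2257 CPM in PKM2FL/FL and at 4434, 4667 and 4604 CPM in PKM2ΔMAC BMDMs, which is 1.03 on the log2 scale with an SE of 0.05 and an adjusted p of 1.90e-05. Prps2, a phosphoribosyl pyrophosphate synthetase, lies on the distal side of Tlr7, with its start 52.2 kb away, and was at 37.6, 34.0 and 34.6 CPM against 71.0, 66.4 and 74.8 CPM, which is 1.00 on the log2 scale with an SE of 0.06 and an adjusted p of 0.000135. So the 4 genes Tmsb4x, Tlr8, Tlr7 and Prps2, which lie next to each other among genes of at least 1 CPM, had log2 fold changes between 0.88 and 1.03.

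The ratios to these neighbours are given as a description, with no test, since the neighbours were singled out because they were called. The ratio of Tlr8 to Prps2 in TPM was 8.42 ± 0.421 in PKM2FL/FL and 8.31 ± 0.290 in PKM2ΔMAC BMDMs, and that of Tlr8 to Tmsb4x was 0.0471 ± 0.000278 and 0.0456 ± 0.00423 (mean ± SD, n = 3). For Tlr7 these ratios were 10.0 ± 0.968 and 9.27 ± 1.75 to Prps2 and 0.0560 ± 0.00259 and 0.0504 ± 0.0060 to Tmsb4x. The genotypes overlapped in all 4 ratios.

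On the proximal side the calls ended with Tmsb4x. The 5 tested genes of at least 1 CPM within 1 Mb before Tmsb4x had 0 calls, with log2 fold changes of 0.02 for Gpm6b, -0.036 for Ofd1, 0.07 for Trappc2, -0.099 for Rab9 and -0.055 for Tceanc. Rab9, a small GTPase of endosome-to-Golgi transport, was at 48.6, 47.3 and 48.3 CPM against 47.0, 42.4 and 45.3 CPM and was not called. The 4 tested genes below 1 CPM between Tceanc and Tmsb4x had overlapping genotypes and 0 calls, with log2 fold changes of -0.0023 (SE 0.38) for Rpl7a-ps11, 1.12 (SE 0.49) for Gm1720, 1.51 (SE 0.73) for Gm15232 and 0.17 (SE 0.60) for Gm15228, the nearest to Tmsb4x. On the distal side, 8 genes other than the receptors and of at least 1 CPM start between Tmsb4x and the chromosome end, Tmsb4x included, and 7 of them were called, all as higher. Msl3, a subunit of a chromatin complex, had a log2 fold change of 0.99, and Hccs, a mitochondrial enzyme that attaches heme to cytochrome c, of 0.91, while Mid1, a ubiquitin ligase, had 0.62. Arhgap6, whose annotated body overlaps that of Hccs, had 0.96, and Gm15726, an antisense transcript within Mid1 with a mean of 1.03 CPM, had 1.54, so that reads of these overlapping genes may be shared. Among 413 X genes of at least 1 CPM that start more than 1 Mb before Tlr7, which include Tlr13, 0 were called and the median log2 fold change was 0.01. Transcripts of the Y-linked genes Ddx3y, Eif2s3y, Kdm5d and Uty were present in all 6 libraries, and Xist had between 2 and 28 counts. Whether the genotypes differ in the DNA of this stretch was not tested.

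**Figure D4:**
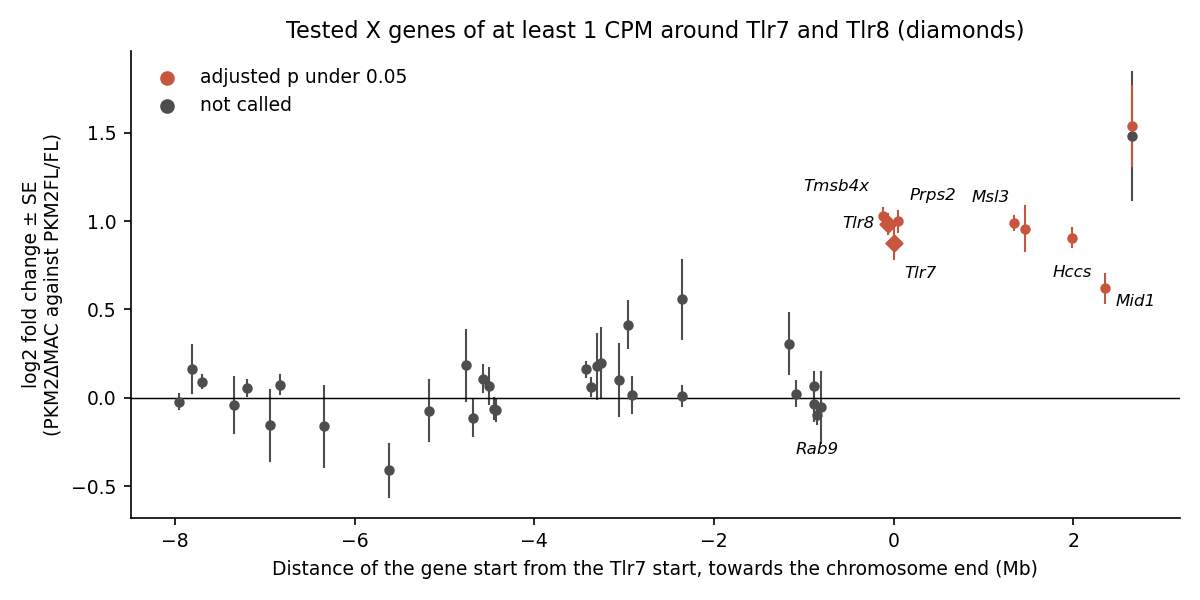
Log2 fold change ± SE from edgeR of tested chromosome X genes with a mean of at least 1 CPM, by the distance of their start from that of Tlr7 in Mb towards the chromosome end, for 3 libraries per genotype. Tlr7 and Tlr8 (diamonds) lie with Tmsb4x, Prps2, Msl3, Hccs and Mid1 between 0.62 and 1.03, whereas the genes further to the left were not called.

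Profiles over the 6 libraries were compared next, as log2 CPM relative to the PKM2FL/FL mean, by the root mean square difference over 13077 genes of at least 1 CPM. The 5 genes most like Tlr8 were Prps2 at 0.052, Msl3 at 0.053, Hccs at 0.079, Tmsb4x at 0.086 and the chemokine receptor gene Ccr3 at 0.11, in log2 units. Thus 4 of these 5 lie on distal chromosome X, and Ccr3 lies on chromosome 9. The genes most like Tlr7 were less close, with Cenpw at 0.11, Rab39 at 0.12, Zbtb16 at 0.13, Hccs at 0.13 and Adam12 at 0.13. Of these 5 only Hccs lies on chromosome X, and Cenpw, Rab39 and Zbtb16 were not called (adjusted p = 0.225, 0.109 and 0.0989). The likeness is a description over 6 libraries, and a gene with a like difference between the genotypes comes near by this measure.

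No other gene of the pathway was called, as the plot of fold changes by pathway group shows. The lists held 56 symbols for 55 genes, since Tasl and its older symbol 5430427O19Rik name the same gene. All 55 were in the tables, 53 were tested and 0 were called by edgeR, against 0.412% of all tested genes. An unadjusted p under 0.05 was reached by 3 of the 53, Cd36, Pik3ap1 and Traf6, and by 9.83% of all tested genes. DESeq2 called 1, Cd36, and 1.38% of the 20217 genes to which it gave an adjusted p. The median log2 fold change was -0.024, with 22 genes above and 31 below 0, where 49.9% of all tested genes were above 0. Without PKM2ΔMAC replicate 2 this turned to 30 above and 23 below 0.

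Among the accessory receptors, Cd36, a scavenger receptor that delivers diacylated lipids to Tlr2 and Tlr6, was at 404, 342 and 395 CPM in PKM2FL/FL and at 485, 466 and 551 CPM in PKM2ΔMAC BMDMs. The genotypes did not overlap, and the log2 fold change of 0.39 had an SE of 0.08 (adjusted p = 0.167). With the replicate number as a block it was 0.40 and was called (adjusted p = 0.0234). Cd14, which passes LPS to Tlr4, was at 415 ± 19.9 and 401 ± 66.4 CPM, and Ly96 (MD-2), the LPS-binding partner of Tlr4, at 8.08 ± 0.389 and 8.52 ± 0.597 CPM (mean ± SD, n = 3). Lbp, Cd180 and Ly86 had log2 fold changes of -0.051, 0.03 and -0.051. Without PKM2ΔMAC replicate 2 the difference of Cd14 was -0.19 (adjusted p = 0.0982), that of Lbp 0.10 and that of Cd180 0.085. Thus neither Tlr4 nor its LPS-binding partners passed the test.

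Of the 4 chaperone genes, Unc93b1, which carries the nucleic acid receptors to endosomes, was at 791 ± 9.53 and 815 ± 12.7 CPM a difference of 0.04 on the log2 scale with an SE of 0.04 (adjusted p = 0.784). Hsp90b1 (gp96), the folding chaperone of the family, had 0.08 (adjusted p = 0.540). Among 14 genes of endosomal processing and nucleic acid handling 2 were above and 12 below 0, against 49.9% of all tested genes above 0, with a median of -0.067 and a smallest adjusted p of 0.684. This count rested on PKM2ΔMAC replicate 2, without which 8 were above and 6 below 0 and the median was 0.04. The lowest was Slc29a3, a lysosomal nucleoside transporter, at -0.14 (0.016 without that library), and the highest was Ctsl, a protease that cleaves the receptor ectodomains, at 0.16 (0.35 without it, adjusted p = 0.189). Slc15a4, the transporter that supports Tlr7 and Tlr9 signalling, had -0.069, and -0.11 without it.

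The TIR adaptor Myd88 was at 72.3 ± 3.04 and 78.9 ± 6.00 CPM, with a log2 fold change of 0.13 (adjusted p = 0.539) that was 0.067 without PKM2ΔMAC replicate 2, and Ticam1, the adaptor of Tlr3, had -0.12. The largest differences of this group were 0.14 for Pik3ap1 and -0.27 for Sarm1, which had between 1.06 and 1.50 CPM. Among 13 kinases and ubiquitin ligases the range was narrow, from -0.13 for Traf6, the ubiquitin ligase downstream of Myd88, to 0.05 for Tab2. Irf7, a transcription factor downstream of Tlr7 and Tlr9 and itself an interferon-stimulated gene, was at 42.4, 44.7 and 31.9 CPM against 57.8, 76.8 and 27.8 CPM. Its PKM2ΔMAC libraries spanned the whole range of both genotypes, and the log2 fold change of 0.45 had an SE of 0.40 (adjusted p = 0.789). Without PKM2ΔMAC replicate 2 it was 0.11. Irf5 had 0.03, or 0.012 without that library, and Irf3 had -0.010. Of 7 negative regulators Irak3, an inhibitory kinase homologue, had the highest value at 0.28 (adjusted p = 0.560, and 0.12 without PKM2ΔMAC replicate 2) and Tollip the lowest at -0.046 (0.013 without it).

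**Figure D5:**
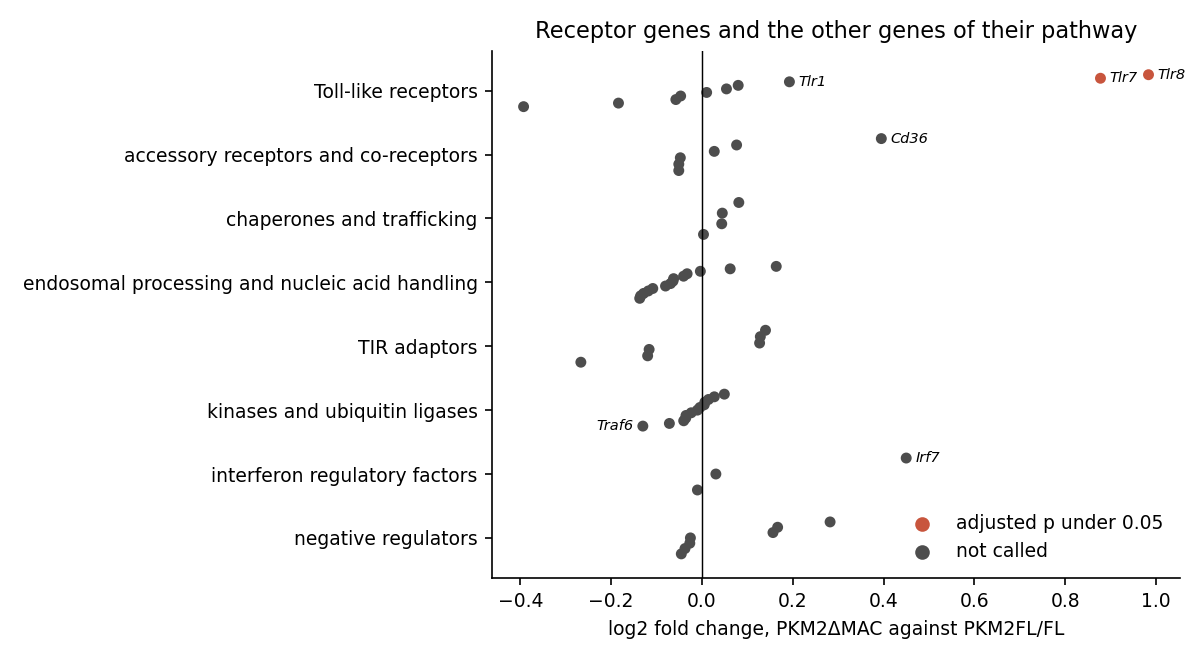
Log2 fold change in PKM2ΔMAC against PKM2FL/FL BMDMs from edgeR of the 10 Toll-like receptor genes and the 53 tested genes of their pathway, with 1 point per gene and 1 row per group. Tlr7 and Tlr8 at the right were called, and the other points, among them Cd36 at 0.39 and Irf7 at 0.45, were not.

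Levels of genes that mark other cells and the priming stand beside these results. The 8 macrophage markers summed to between 8827 and 8980 CPM in PKM2FL/FL and between 8863 and 9162 CPM in PKM2ΔMAC BMDMs, and 1 of them was called. This was Itgam (CD11b), an integrin that neutrophils carry too, at 197, 193 and 198 CPM against 253, 272 and 266 CPM. Of 11 neutrophil markers 10 were in the tables, and they summed to 20.5, 35.3 and 50.3 CPM against 123, 90.8 and 171 CPM, with 9 of 9 tested genes above 0 and 0 called. The part of this difference in the Tlr7 and Tlr8 values was not tested. PKM2ΔMAC replicate 2 had the lowest neutrophil sum of its genotype, with the highest Tlr7 value and the lowest Tlr8 value, and replicate 3 had the highest neutrophil sum and the lowest Tlr7 value. Markers of plasmacytoid dendritic cells, which are known for high Tlr7 and Tlr9, summed to between 1.76 and 2.09 CPM against between 0.705 and 1.94 CPM, those of conventional dendritic cells to between 3.52 and 3.99 against between 3.57 and 4.07 CPM, and those of B cells to between 110 and 128 against between 118 and 153 CPM. All 5 tested B cell markers were above 0 and 0 were called. Most of the B cell sum came from Ighm, with between 3430 and 5487 counts per library, and Ebf1, with between 2008 and 2918 counts, whereas Ms4a1 and Pax5 had between 0 and 22 counts. The part of the B cell markers in the Tlr7 and Tlr8 values was not tested.

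Several genes that LPS and IFN-γ are known to induce had few counts in all 6 libraries, although these are labelled as primed. The 12 genes of this list summed to between 172 and 181 CPM in PKM2FL/FL and between 154 and 228 CPM in PKM2ΔMAC BMDMs, and 0 of 11 tested were called. Nos2, the inducible nitric oxide synthase, had between 2 and 26 counts per library, Il12b between 2 and 6, Il6 between 7 and 18, and Cxcl9 between 22 and 50. Il1b had between 95 and 162 counts and Acod1 between 81 and 228, while Ciita, the MHC class II transactivator, Irf1 and Gbp2 had at least 930 counts in each library. Unprimed libraries were not analysed here, so that neither the priming itself nor the response of the receptor genes to it could be checked. PKM2ΔMAC replicate 2 had the highest Tlr7 value and the lowest Tlr8 value of its genotype. It also had the highest CPM of Ciita, Tnf, Ptgs2, Il1b, Il6, Cxcl9 and Cxcl10. For Irf1, Gbp2, Nos2, Acod1 and Il12b the highest value was in another library. Whether these levels are linked to those of the receptor genes was not tested.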

How the data were processed

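RNA-seq of LPS/IFN-γ-primed BMDMs was analysed for 3 PKM2FL/FL and 3 PKM2ΔMAC mice, matched to the tables by the genotype and mouse number in the column names. For each gene symbol the authors deposited counts as they came from the reads and, in another table, TPM values, which are divided by gene length and sum to between 999626 and 999691 per library. The submitters' processing notes name FastQC 0.12.1, Trim Galore 0.6.10, HISAT2 2.2.1, SAMtools 1.19.2, Subread 2.0.6 and the build mm10. The annotation and the use of strand are not given in the sources used here. The TPM of all 10 genes imply the exonic lengths of GENCODE M21 (GRCm38), from which positions were taken.

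Counts were tested with edgeR 4.0.16 (R 4.3.3, TMM factors from 0.980 to 1.04, filterByExpr, genotype as the only term, robust quasi-likelihood test), and p-values were adjusted by Benjamini-Hochberg over 16516 genes, with 0.05 as the threshold. CPM were scaled by the TMM factors, and exact permutation tests used log2(CPM + 0.1). The functions were tested on simulated data. The members, the gene lists and the marker lists were chosen with earlier results of these data known. Named are all 10 members, of each pathway list the called genes and those with the largest differences, the neighbours of called members at a mean of at least 1 CPM, and the 5 most alike genes; other pathway genes named for their role, and neighbours below 1 CPM, were added after their values were seen. Alternatives were RLE or upper-quartile factors, DESeq2 1.42.0, other filters (none, or 10 counts in every library), non-robust estimation, a replicate block, each library left out, and limma-trend (limma 3.58.1) on log2 of TPM plus 1 or 0.1, with a mean TPM of at least 1 or no filter. Library totals were at least 49957449 counts. Over the 6 libraries Tlr5 had between 39 and 75 counts and every other member at least 885, so that the relative counting error was largest for Tlr5.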

Additional observations from a re-analysis of the deposited data

How the results depend on the processing

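Tlr8 kept its direction and its call in 16 of 16 alternatives, with log2 fold changes from 0.95 to 1.05, and Tlr7 its direction in 16 of 16, from 0.78 to 0.96, and its call in 11. Tlr7 was not called on log2(TPM + 0.1) (0.94, adjusted p = 0.0528), on log2(TPM + 1) without a filter (0.94, adjusted p = 0.0594), or with any 1 PKM2FL/FL library left out (adjusted p from 0.0639 to 0.0993). Hence 1 member was called with each of these TPM settings, against 2 otherwise, and between 1 and 3 when a library was left out, where PKM2ΔMAC replicate 2 added Tlr1. Over all tested genes, in place of 68, 280 were called by DESeq2, 120 without a filter on low counts, 41 and 32 on log2 of TPM plus 1 and 0.1, 36 on log2(TPM + 1) without a filter, and between 22 and 299 with a library left out, the lowest without PKM2FL/FL replicate 3 and the highest without PKM2ΔMAC replicate 2. Of the pathway genes, in place of 0, DESeq2 called 1 (Cd36, adjusted p = 0.00216), and between 0 and 1 were called with a library left out (Tnfaip3 at 0.32 without PKM2ΔMAC replicate 2, adjusted p = 0.0493). Differences near 0 turned sign: Tlr4 was at 0.015 and Tlr3 at 0.024, 0.026 and 0.024 in the 3 TPM settings, Tlr3 at 0.050 without PKM2FL/FL replicate 2 and 0.030 without PKM2ΔMAC replicate 3, and Tlr13 at -0.011 without PKM2FL/FL replicate 2, -0.013 without PKM2ΔMAC replicate 1 and -0.0057 without PKM2ΔMAC replicate 3, while over all left-out libraries Tlr3 ranged from -0.11 to 0.050 and Tlr13 from -0.013 to 0.049. In the TPM settings Tlr13 was at 0.082, Tlr9 at 0.12, Tlr6 at 0.14 and Tlr2 at -0.12, each without a call. Tlr5, which had a value only in the TPM setting without a filter, was at -0.14 there, also without a call. The TPM settings moved the median of all genes by at most 0.067. For the other changes the cause was not tested.

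Libraries with the same number deviated together with correlations of 0.156, 0.254 and 0.0395, so that the numbers were not taken to pair the mice, although each PKM2FL/FL library correlated best with its own number, while PKM2ΔMAC replicate 3 did not. With the replicate block 2 members (Tlr7 and Tlr8), 82 of all tested genes and 1 pathway gene (Cd36) were called.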
